A study of Danio rerio with 16 samples.

Results

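Genes of the motile ciliary axoneme were followed through 16 RNA-seq libraries of sorted zebrafish brain cells. A gene was counted as a member when its symbol began with dnah, dnai, dnal, dnaaf, cfap, drc, odad, rsph, tekt, spag or efcab and a number, or when it was rfx2 or rfx3. Rows of one symbol were summed, which gave 71 members among 30565 symbols. Of these, 66 reached at least 10 counts in at least 2 libraries. The 5 others were dnai1.1, dnai2a, dnal4a, rsph1 and tekt3. Of those, dnai2a had no count anywhere and tekt3 had 96 counts, all in LH replicate 3. No member symbol began with odad. Some genes of the docking complex of the outer dynein arm were in a separate list under older names.

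The libraries came from fish aged 1 month of 2 transgenic lines, with 8 whole brains pooled per replicate and 4 replicates per group. In Tg(76A:Gal4FF;UAS:GCaMP6s) fish, used to obtain the lateral hypothalamus, cells with the calcium indicator GCaMP6s form the group LH and cells without it the group non-LH. In Tg(116A:Gal4FF;UAS:GFP) fish, used to obtain the caudal hypothalamus, GFP-positive cells form the group cH and GFP-negative cells the group non-cH. Positive and negative cells of a line thus carry the same driver and reporter transgenes. The labels describe dissociation of whole brains, so a positive sort holds any brain cell in which the driver is active, and the negative sorts hold all remaining brain cells. Line and reporter differ between LH and cH, and their part in a difference between these groups cannot be told apart from that of the cells. In these sorted pools, fewer cells of a type and less RNA per cell cannot be told apart either.

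A motile cilium beats because dynein motors, set in outer and inner arms along the doublet microtubules, slide neighbouring doublets past each other. Radial spokes, the central pair and the nexin-dynein regulatory complex control this sliding, and the arms are assembled in the cytoplasm before they are carried into the cilium. Foxj1 and Rfx transcription factors switch on this set of genes. In the brain, cilia of ependymal cells lining the ventricles move cerebrospinal fluid (CSF), and neurons and glia carry primary cilia, which share transport and basal body proteins with motile cilia but lack the beating machinery.

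Libraries held between 26.8 M and 49.4 M counts. The cH libraries detected fewer genes than all others, with 13478 and 13663 genes in replicates 1 and 2 and 16793 and 16887 in replicates 3 and 4, against 18843 to 21015 in the other 12 libraries. Radial glia and progenitor markers took 6.24 to 10.0% of cH counts and 0.396 to 1.22% elsewhere, and 13 of 20 passed the test as higher and 1 as lower in cH against non-cH, with log2 fold changes of 2.47 for msi1 and 2.95 for sox9a. Pan-neuronal markers took 0.0451 to 0.238% of cH counts and 1.04 to 1.44% elsewhere, and 12 of 18 passed as lower, elavl4 by −3.996 and stmn2a by −4.43 on the log2 scale. These 4 calls held without each library in turn. Over all genes tested in cH against non-cH, 3.63% passed as higher and 4.66% as lower.

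The axoneme genes as a set took a larger share of the RNA in cH cells than in any other group. The 66 members held 0.189% and 0.19% of the counts in cH replicates 1 and 2 and 0.105% and 0.0923% in replicates 3 and 4. In the other 12 libraries the share ran from 0.0485 to 0.064%. The cH libraries were above all others, and replicates 1 and 2 were above 3 and 4. Leaving out the spag, efcab and rfx members, several of which work outside cilia, left 51 axoneme members. They held 0.101, 0.112, 0.0352 and 0.0357% of the counts in cH replicates 1 to 4. In the other 12 libraries they held 0.018 to 0.027%, so the margin of cH replicates 3 and 4 was small. Their values, as CPM (counts per 1 M counts of the library after TMM scaling), summed to 1189, 1066, 409 and 398 CPM in cH replicates 1 to 4. The same sum ran from 204 to 263 CPM in LH, 210.0 to 248 in non-LH and 178 to 248 in non-cH. Across the 16 libraries, the highest value of a member fell in a cH library for 58 of the 66 (87.9%), while this held for 44.0% of all genes. Replicate 1 was the highest of all libraries for 24 members, replicate 2 for 19, replicate 3 for 8 and replicate 4 for 7.

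**Figure D1:**
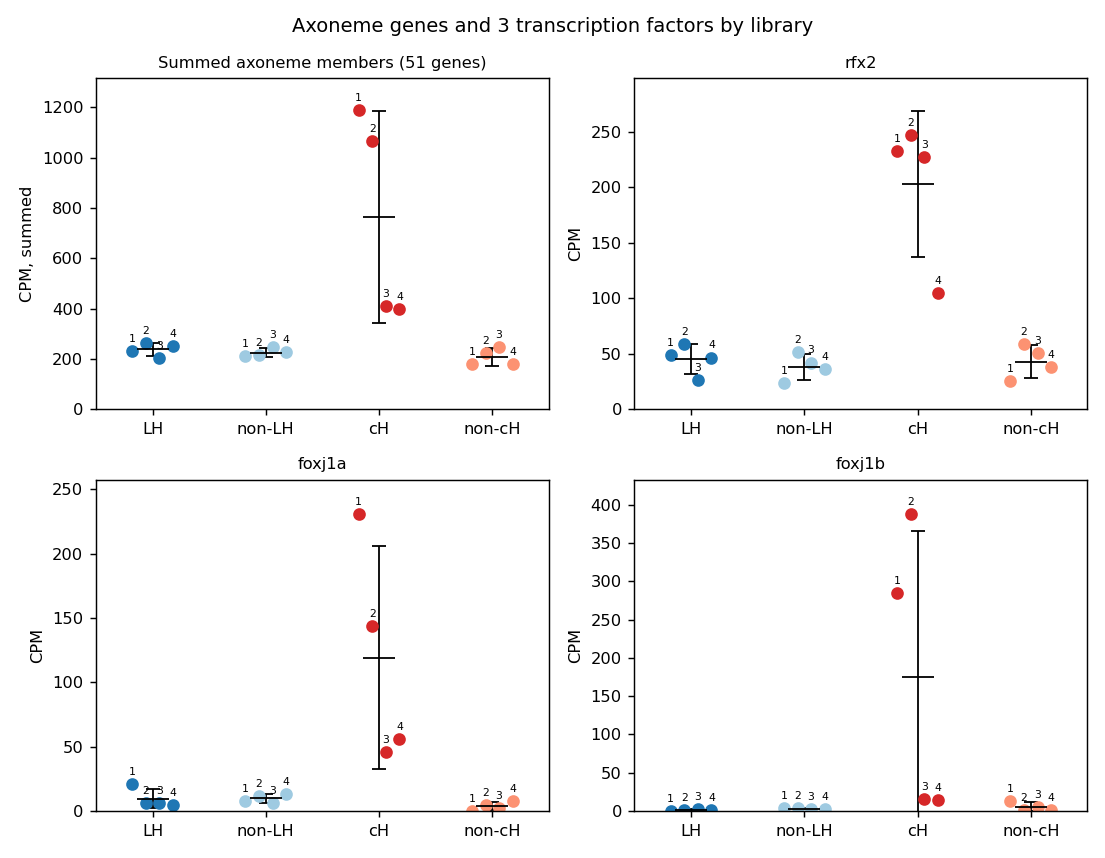
Each panel plots CPM of the TMM-scaled library (vertical axis, linear, from 0) for the 16 libraries by group: the sum over 51 axoneme members, and the transcription factor genes rfx2, foxj1a and foxj1b. Points are libraries with their replicate number, the bar is the group mean and the whiskers are 1 SD (n = 4); the cH libraries lie above all others in each panel, and for the summed members replicates 1 and 2 (1189 and 1066 CPM) lie far above 3 and 4 (409 and 398).

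Single axoneme genes varied between the libraries of a group. In cH, 53, 53, 47 and 47 of the 66 members had at least 1 count in replicates 1 to 4, in spite of the lower number of genes detected there; the other libraries detected 33 to 61. All 4 cH libraries held 30 of the members (45.5%), close to the 43.9% for genes in general. For 11 of the 65 members with any count in cH (16.9%), over 90% of the group's summed CPM came from a single library, beside 18.05% of genes in general. A single library held a median of 61.4% of a member's cH total, and 51.7% of the total for genes in general. The corresponding medians were 58.9% and 36.5% in LH, 43.6% and 34.3% in non-LH, and 52.1% and 37.1% in non-cH. This spread limits the test for any one gene.

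**Figure D2:**
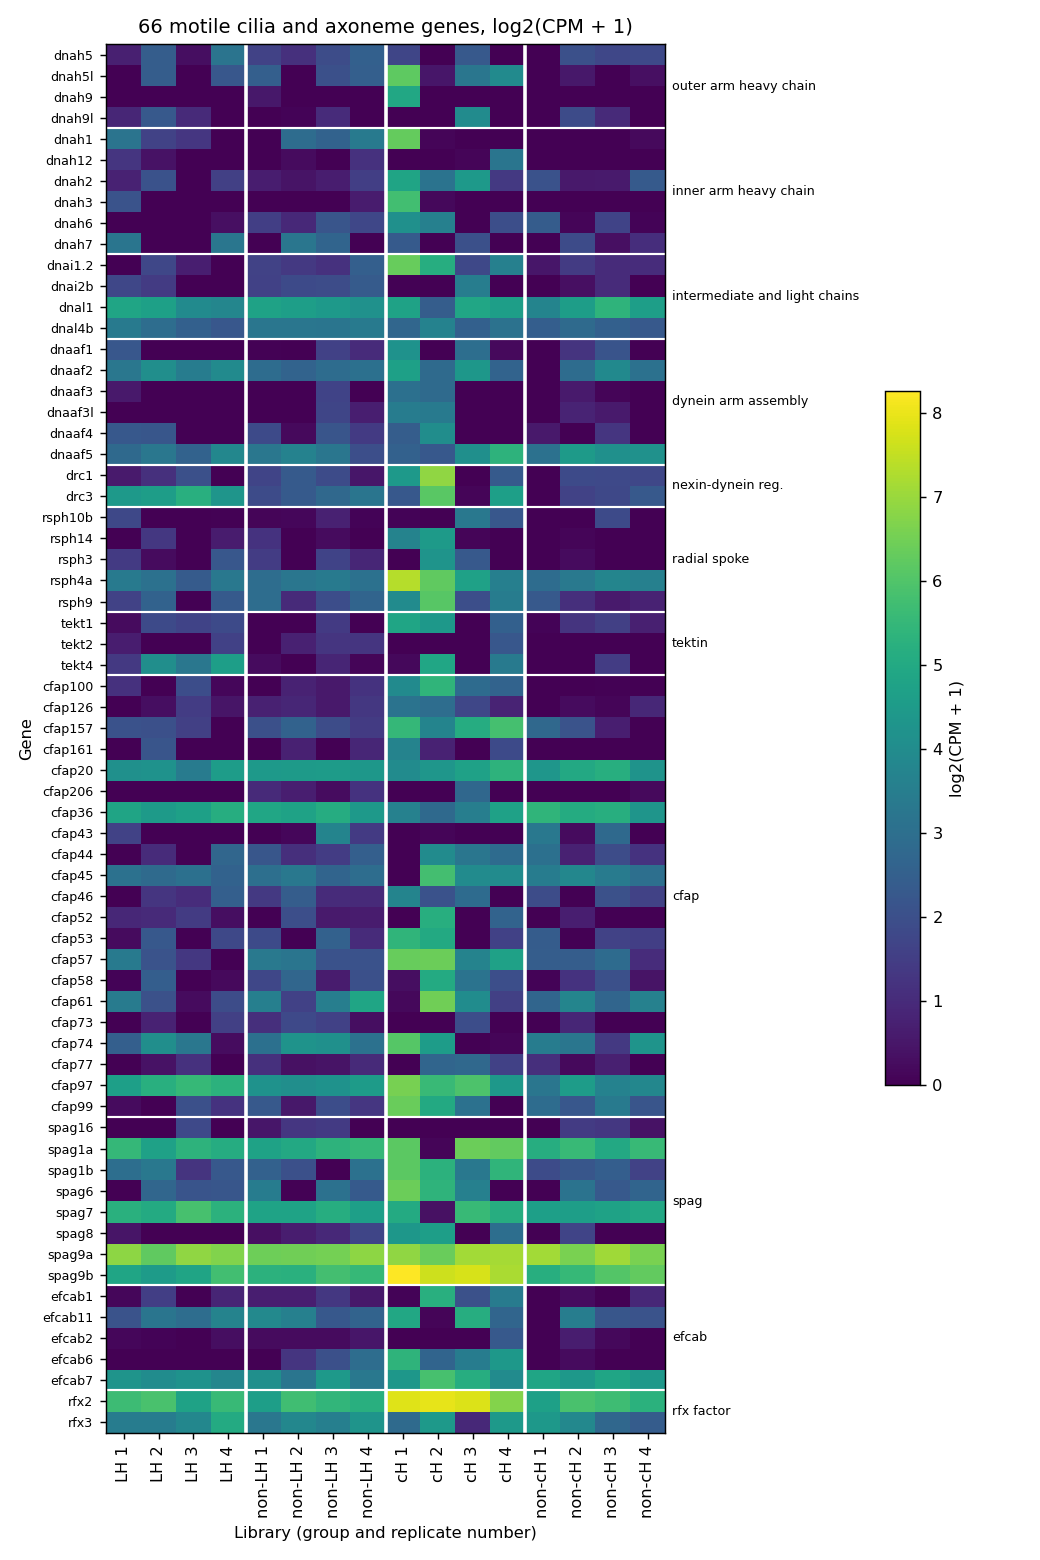
Heat map of log2(CPM + 1) for the 66 members (rows, ordered by role) in the 16 libraries (columns, 4 per group). The cH columns hold the brightest cells of most rows, such as dnah1 at 78.0 CPM in cH replicate 1 alone, whereas rfx2 and spag9b are bright in all 4 cH columns.

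GFP-positive and GFP-negative cells were compared to see which members differ between the positive and negative sorts of this line. Of the 66 members, 7 were higher in cH and 0 lower in edgeR's quasi-likelihood test, or 10.6%. Over all 21862 genes tested, 3.63% passed as higher and 4.66% as lower. The log2 fold change was positive for 58 members and negative for 8. Their median was 2.76, against −0.38 for all genes, and it remained 2.76 when the 6 genes at 0 in a group were set at their bounds. Without cH replicates 1 and 2 the median was 1.41 over 64 members. The 7 genes were rfx2, spag9b, spag1b, cfap100, cfap57, dnai1.2 and efcab6, and in each the 4 cH libraries lay above the 4 non-cH libraries. A further gene, cfap157, also showed no overlap but did not pass. Thus 8 of the 66 members were higher without overlap, beside 7.34% of all genes. Lower without overlap were 0 of the 66 members, beside 15.5% of all genes. The calls of rfx2, spag9b, spag1b and efcab6 lay outside the 51 axoneme members. Of these 51, 3 passed as higher (cfap100, cfap57 and dnai1.2), or 5.88%, nearer to the 3.63% of all genes, and 0 as lower. A positive log2 fold change was found for 45 of the 51, and the median was 3.14. Setting aside cH replicates 1 and 2 brought that median to 1.28.

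Of the transcription factor genes, rfx2 had the smallest p of all members. It encodes a winged-helix factor that binds promoters of cilia genes. Its level was 232, 247, 227 and 105 CPM in cH and at 25.1, 58.4, 50.4 and 37.9 CPM in non-cH. LH had 49.2, 58.3, 26.0 and 46.6 CPM, and non-LH 23.6, 51.5, 42.1 and 36.4 CPM. Every cH library was above all 12 others, with replicate 4 the lowest of the cH group. The log2 fold change against non-cH was 2.199 ± 0.383 SE (adjusted p = 0.0113). Without non-cH replicate 4 the adjusted p was 0.0502, and without the other 7 libraries in turn the call held. Its relative rfx3 did not follow: it was at 6.19, 20.8, 0.949 and 21.1 CPM in cH and 20.2, 13.5, 5.85 and 4.29 CPM in non-cH, with wholly overlapping groups (log2 fold change 0.13 ± 1.07 SE, adjusted p = 0.968).

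The forkhead genes foxj1a and foxj1b, whose names fall outside the naming rule, encode the main switch of the motile cilia programme. foxj1a was at 231, 144, 45.7 and 56.2 CPM in cH and at 0.0458, 4.79, 2.21 and 7.61 CPM in non-cH. It was higher in cH without overlap (log2 fold change 4.99 ± 1.26 SE, adjusted p = 0.0441). The call rested on the full set of libraries: it was lost without any one of 7 of the 8, non-cH replicate 1 being the exception, with an adjusted p of up to 0.128 without non-cH replicate 3. foxj1b was at 285, 388, 15.3 and 14.3 CPM in cH and at 13.5, 0.957, 5.26 and 1.49 CPM in non-cH. The groups did not overlap, but 2 cH libraries were only just above the highest non-cH library, and the difference did not pass (log2 fold change 5.04 ± 1.40 SE, adjusted p = 0.0643). Both genes, like the summed members, were highest in cH replicates 1 and 2. The multiciliogenesis regulators gmnc and mcidas, named here after their values were seen, were at 0 in 2 and 3 of the 4 cH libraries and did not pass (adjusted p = 0.687 and 0.634). These tests do not place cH above or below non-cH for either gene. Both were picked from a list of other motile cilia genes, described below, in which 70 of 76 tested had a positive log2 fold change.

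Among the dynein arm heavy chains, the motor subunits, all 6 inner arm genes had a positive log2 fold change in cH (0.74 to 11.99) and 3 of 4 outer arm genes did, but 0 of the 10 passed. In 5 of them (dnah1, dnah3, dnah9, dnah9l and dnah12) over 90% of the cH signal came from 1 library. The inner arm gene dnah1 was at 78.0 CPM in cH replicate 1 and at 0.0711 CPM or less in the other 3, and in non-cH only replicate 4 had any (0.154 CPM). dnah3, also of the inner arm, was at 52.9 CPM in replicate 1 and 0.142 in replicate 2, and at 0 in cH 3 and 4 and in all non-cH libraries. The outer arm gene dnah9 was at 30.3 CPM in replicate 1 and at 0 in the other 7 libraries of this comparison. The adjusted p values of dnah1, dnah3 and dnah9 were 0.199, 0.191 and 0.22. Against a floor of 3 counts over the non-cH group, the pooled cH counts of dnah3 and dnah9 were at least 750-fold and 429-fold higher. These bounds rest almost wholly on cH replicate 1 and do not cover the spread between the cH libraries. The outer arm gene dnah5l was at 72.9, 0.427, 8.54 and 14.6 CPM in cH and 0, 0.435, 0 and 0.257 in non-cH (log2 fold change 7.07 ± 2.25 SE, adjusted p = 0.101). The groups overlapped through cH replicate 2. Without cH replicate 2 the adjusted p was 0.0487.

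Intermediate and light chains complete the arms. The intermediate chain gene dnai1.2 was at 80.0, 34.2, 2.48 and 11.3 CPM in cH and 0.413, 1.72, 1.01 and 1.08 CPM in non-cH, with no overlap (log2 fold change 4.89 ± 1.22 SE, adjusted p = 0.0426). Its call was lost without cH replicate 1 or without any single non-cH library, with an adjusted p of up to 0.125 (without non-cH replicate 3). The gene sums 2 rows of the table, and reads of near-identical copies could be split between such rows. dnai2b was detected in cH replicate 3 at 10.3 CPM and at 0.0311 CPM or less in the others. dnal1 and dnal4b, light chain genes, did not pass, with log2 fold changes of −0.33 ± 0.72 SE and 0.56 ± 0.90 SE. Unlike the heavy chains, both were detected in all 16 libraries: dnal1 ran from 4.41 to 40.5 CPM and dnal4b from 3.75 to 11.6 CPM.

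The dnaaf genes encode factors that assemble dynein arms in the cytoplasm. Of 6, 5 had a positive log2 fold change (median of the 6, 2.84) and 0 passed. dnaaf3 and dnaaf3l were found at 7.28 and 6.19 CPM and at 10.0 and 9.49 CPM in cH replicates 1 and 2, and neither had a count in replicates 3 and 4. In non-cH they reached 0.5 and 0.761 CPM at most. Both therefore followed the split between the cH replicates. dnaaf5 showed the opposite order, at 4.98, 3.84, 16.4 and 39.2 CPM in cH and 7.52, 21.7, 16.6 and 17.02 CPM in non-cH (log2 fold change −0.02 ± 0.90 SE, adjusted p = 0.993).

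All 5 radial spoke genes had a positive log2 fold change, from 2.19 to 8.35, and 0 passed. rsph4a, a spoke head gene, was at 161, 74.6, 25.7 and 10.8 CPM in cH and at 6.58, 9.22, 12.7 and 11.1 CPM in non-cH. Of the cH libraries, replicates 1 to 3 were above the non-cH range and replicate 4 was inside it (log2 fold change 2.76 ± 0.82 SE, adjusted p = 0.0826). Without cH replicate 4 it passed (adjusted p = 0.0337). The spoke head gene rsph9 was at 14.8, 68.0, 2.99 and 10.1 CPM in cH and 3.99, 1.15, 0.526 and 0.746 CPM in non-cH (log2 fold change 3.89 ± 1.28 SE, adjusted p = 0.113), and only replicate 3 lay inside the non-cH range. For the nexin-dynein regulatory complex, which links neighbouring doublets, drc1 was at 20.6, 117, 0 and 4.11 CPM in cH and drc3 at 3.80, 70.5, 0.073 and 24.6 CPM. Neither passed against non-cH, where they reached 2.61 and 3.96 CPM at most (adjusted p = 0.29 and 0.326). Both were highest in cH replicate 2 and near or at 0 in replicate 3.

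Tektins form filaments in the wall of the doublets. tekt1 was at 28.3, 20.4, 0 and 4.83 CPM in cH and at 1.93 CPM or less in non-cH. tekt2 had counts in cH replicate 4 alone (3.75 CPM), and tekt4 in replicates 1, 2 and 4 at 0.124, 28.6 and 9.53 CPM. The 3 log2 fold changes ran from 3.69 to 8.13, and 0 of the 3 genes passed.

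The cfap genes encode proteins of several axonemal structures, and 2 of 21 were higher in cH (9.52%, beside 3.63% of all genes). cfap100, whose product in Chlamydomonas belongs to a complex that regulates inner arm dyneins, was at 14.5, 41.4, 6.35 and 5.15 CPM in cH. In non-cH it had 2 counts, both in replicate 3, against 2032 counts in cH. The ratio of counts, scaled for library size, was 1341 (95% interval 371 to 11080, counting error only; adjusted p = 0.0163). LH and non-LH held 142 and 104 counts of it, so the lowest group was non-cH, though its difference from non-LH did not pass (adjusted p = 0.503). cfap57, a dynein-regulating gene, was at 80.8, 84.7, 11.8 and 25.3 CPM in cH and 4.45, 4.37, 6.46 and 1.08 CPM in non-cH (log2 fold change 3.60 ± 0.88 SE, adjusted p = 0.0401). The calls of both genes were lost without any single non-cH library (adjusted p of up to 0.0654 for cfap100, without replicate 4, and 0.115 for cfap57, without replicate 2), and that of cfap57 also without cH replicate 1 or 2. Of the 19 others, 16 had a positive log2 fold change. cfap97, the most abundant of them by mean CPM, was at 94.3, 47.6, 61.6 and 20.3 CPM in cH and 8.52, 22.9, 11.7 and 13.1 CPM in non-cH, overlapping through cH replicate 4 (log2 fold change 1.96 ± 0.60 SE, adjusted p = 0.0892; 0.0439 without cH replicate 4). cfap157 was at 44.0, 12.2, 34.1 and 56.3 CPM in cH and at 5.96, 3.31, 0.613 and 0 CPM in non-cH, without overlap (log2 fold change 3.86 ± 1.52 SE, adjusted p = 0.176). In cfap157 the 2 cH libraries with the fewest genes were not the highest ones. cfap43 went against the set, with 2 counts in cH and 679 in non-cH, nearly all of them in replicates 1 and 3, and did not pass (adjusted p = 0.146).

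**Figure D3:**
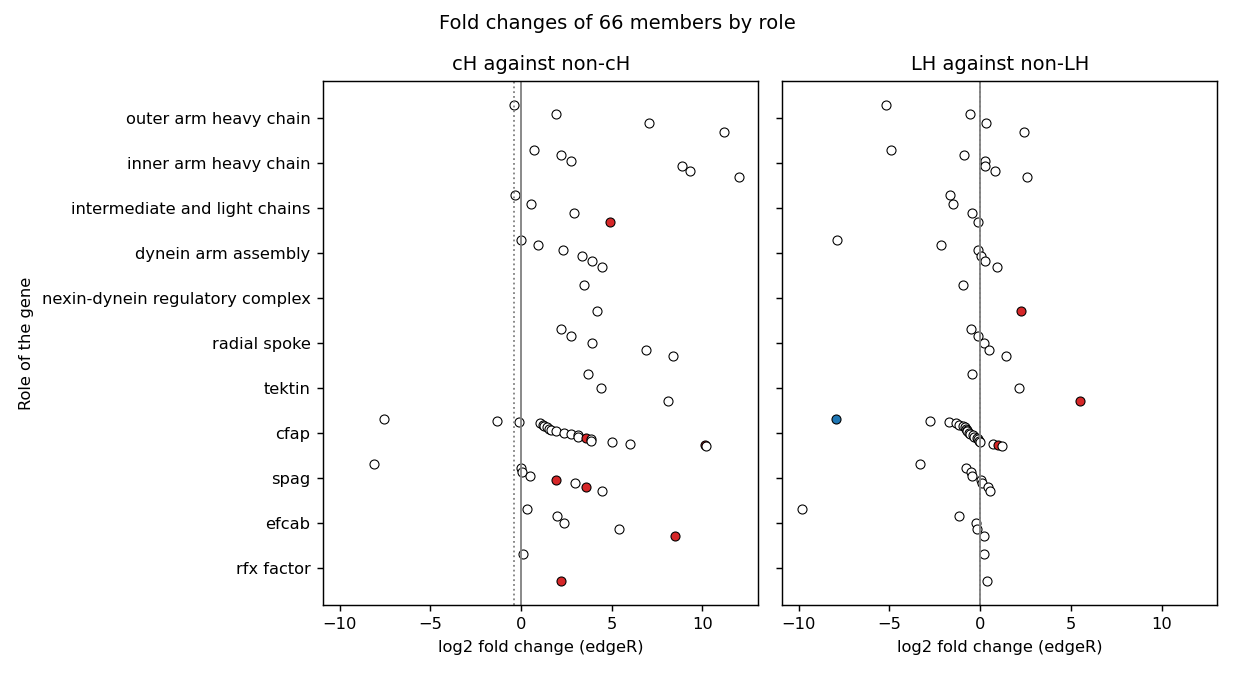
log2 fold changes from edgeR (horizontal axis) of the 66 members by role (vertical axis), for cH against non-cH on the left and LH against non-LH on the right. Red points passed as higher and blue points as lower, white points did not pass, and the dotted line is the median of all genes (−0.38 and −0.03); on the left 58 of 66 points lie above 0, and on the right 26 of 66.

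The spag and efcab symbols gather proteins of mixed function. Of 8 spag genes, 2 passed as higher in cH against non-cH (25.0%, beside 3.63% of all genes) and 0 as lower. Their log2 fold changes were positive for 6 and negative for 2, from −8.11 to 4.45. With DESeq2, spag16 was called lower in cH. spag9b, whose product is a scaffold of kinase signalling and motor-driven transport rather than a part of the axoneme, was at 306, 197, 218 and 149 CPM in cH and 35.5, 45.6, 65.0 and 76.7 CPM in non-cH. All 4 cH libraries were high and clear of the others (log2 fold change 1.92 ± 0.34 SE, adjusted p = 0.0126; 0.0529 without non-cH replicate 2). The second copy of this gene, spag9a, was at 118.8, 82.4, 138 and 141 CPM in cH and 137, 97.0, 136 and 96.3 CPM in non-cH (log2 fold change 0.00 ± 0.26 SE, adjusted p = 0.999). spag1b, related to a dynein arm assembly factor, was at 71.7, 38.4, 8.84 and 41.9 CPM in cH and 2.70, 3.59, 4.51 and 2.08 CPM in non-cH (log2 fold change 3.61 ± 0.80 SE, adjusted p = 0.0272). Without any single non-cH library the adjusted p of spag1b was 0.0756 to 0.0917, the highest being without replicate 4. efcab6, an EF-hand protein gene, was at 40.7, 5.37, 10.2 and 20.4 CPM in cH, while in non-cH it had 9 counts, all in replicate 2 (log2 fold change 8.48 ± 2.12 SE, adjusted p = 0.0429). Its call was lost without cH replicate 1, 3 or 4 or without non-cH replicate 1, 3 or 4, with an adjusted p of up to 0.114 (without non-cH replicate 4). The other efcab genes did not pass, among them efcab1 at 0.0622, 35.7, 3.18 and 9.78 CPM in cH and 0.9 CPM or less in non-cH (adjusted p = 0.222), and efcab7 with a log2 fold change of 0.35 ± 0.57 SE. Some broadly expressed members were nearly missing from cH replicate 2 only: spag1a was at 0.0711 CPM there and at 72.1 to 83.1 CPM in the other 3 cH libraries, and spag7 at 0.284 against 32.2 to 46.3 CPM.

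Leaving out 1 library at a time gave between 1 member (without non-cH replicate 4) and 8 members (without cH replicate 4). Without any other single non-cH library 2 members passed, and without cH replicate 1 there were 4. With cH replicates 1 and 2 both set aside, 6 members were higher and 1 (cfap74) lower, and 5 of the 6 were among the 7. Over all genes that setting gave 1456 higher and 2096 lower, against 794 and 1018 in the main test. A similar number of members thus stood beside many more calls among all genes. With a replicate block in the model no member passed, beside 448 of all genes. The labels pair no samples by number. In deviations from the group means, each cH library correlated best with the non-cH library of its number, by 0.0124 to 0.0382.

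Other motile cilia genes had mostly positive fold changes too. In a list of 83 such genes found in the table, 76 were tested, of which 70 had a positive log2 fold change in cH against non-cH (median 3.02). Of the 76, 3 passed as higher (3.95%, close to the 3.63% of all genes) and 0 as lower. The 3 were foxj1a, lrguk and rfx4. lrguk had 0.0622, 26.2, 11.7 and 11.52 CPM in the cH libraries and no count in non-cH (adjusted p = 0.0498), and passed with 1 library left out only when that was cH replicate 1 (up to 0.108, without non-cH replicate 2). rfx4, a factor gene also active in neural progenitors, was at 95.7, 61.5, 167 and 114 CPM in cH and at 6.48 to 13.2 CPM in non-cH (log2 fold change 3.45 ± 0.43 SE, adjusted p = 0.00265). Its cH values were not highest in replicates 1 and 2. Of this list, 9 genes carry a newer symbol in RefSeq that would fit the naming rule of the members, so the list is not fully separate from the members. In cH replicates 1 to 4 the list held 0.177, 0.242, 0.0556 and 0.0703% of the counts, and 0.0221 to 0.0442% in the other 12 libraries. Genes that motile cilia share with primary cilia were split between the directions. Of 62 tested, 34 had a positive and 28 a negative log2 fold change (median 0.23). Of the 62, 2 were higher (3.23%, close to the 3.63% of all genes) and 0 lower. The list held 0.129 to 0.183% of counts in cH and 0.116 to 0.145% elsewhere. The 2 were dync2h1, the motor of retrograde ciliary transport, and the Hedgehog signalling gene smo. dync2h1 was at 65.4, 44.4, 106 and 144 CPM in cH and 11.6 to 25.0 CPM in non-cH (log2 fold change 2.14, adjusted p = 0.027). smo was at 39.9, 145, 166 and 201 CPM in cH and 10.9 to 30.4 CPM in non-cH (log2 fold change 2.42, adjusted p = 0.0298). Each of these 2 calls was lost without cH replicate 3 or 4 or any single non-cH library, with an adjusted p of up to 0.0822 for dync2h1 and 0.0854 for smo, both without non-cH replicate 3.

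**Figure D4:**
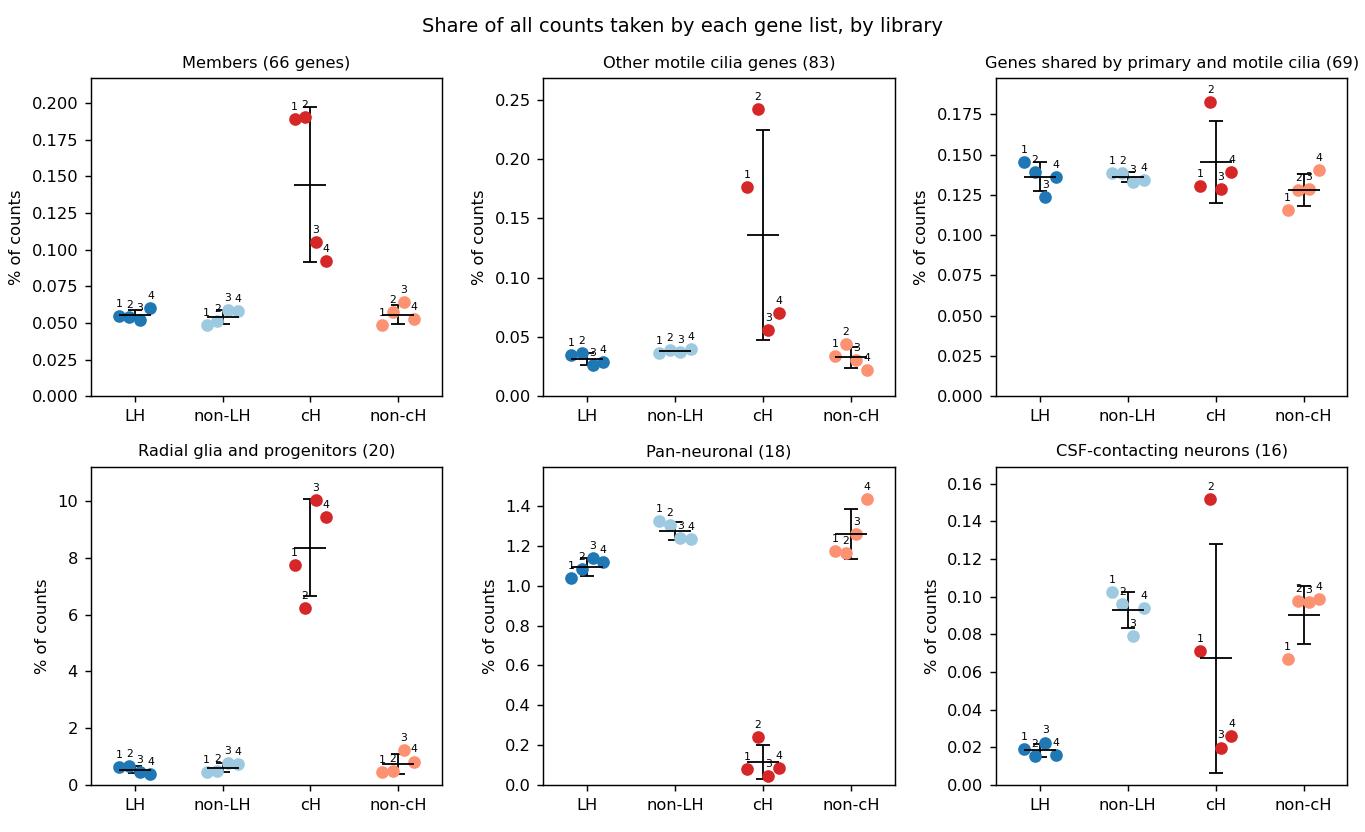
Share of all counts, in percent (vertical axes, linear, from 0), held by the 66 members and by 5 other gene lists in each of the 16 libraries, by group; points carry replicate numbers, bars are means and whiskers 1 SD (n = 4). Members and other motile cilia genes are highest in cH replicates 1 and 2 and radial glia markers in cH replicates 3 and 4; for CSF-contacting neurons cH replicate 2 is highest and replicate 1 lies below all 4 non-LH libraries, and genes shared with primary cilia overlap between the groups.

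Markers of other cells that bear cilia or touch the CSF varied among the cH libraries too. The list of CSF-contacting neurons held 0.071, 0.152, 0.0199 and 0.026% of counts in cH replicates 1 to 4, against 0.0669 to 0.0986% in non-cH and 0.0155 to 0.0225% in LH. In it, tph1a and th2, genes of monoamine synthesis, were higher in cH and gata2a lower, with 15 tested. These were 13.3% higher and 6.67% lower, beside 3.63% and 4.66% of all genes. tph1a was at 365, 625, 40.6 and 45.4 CPM in cH and at 3.66 to 8.91 CPM in non-cH (log2 fold change 5.41 ± 1.02 SE, adjusted p = 0.0156), so it shared with the axoneme genes the step between replicates 1 and 2 and replicates 3 and 4. Its adjusted p was over the threshold without any single non-cH library (up to 0.0645, without replicate 4), and that of th2 without non-cH replicate 2, 3 or 4 (up to 0.077, without replicate 2). gata2a was at 0 in all 4 cH libraries and 44.2 to 77.6 CPM in non-cH. Choroid plexus markers held 0.0741, 0.0568, 0.0274 and 0.0264% of counts in cH and 0.01 to 0.0175% in non-cH. Of these, 3 of 9 were at 0 in the whole cH group. Among the 8 tested, 1 (aqp1a.1, also a radial glia marker) was higher, or 12.5%, beside 3.63% of all genes. Of the 6 markers of the Reissner fibre system that were found 0 passed, and they held 0.0169 to 0.0372% in cH and 0.0225 to 0.0316% in non-cH. A further marker listed, sspo, was not found among the symbols and could not be assessed. Photoreceptor markers, of which 13 of 17 were at 0 in the cH group, held at most 0.001% of counts there and at most 0.0167% in non-cH. The part of these cell types in the axoneme result was not tested.

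Markers of cells outside the ventricular lining mostly had negative log2 fold changes in cH against non-cH, though fewer passed. Negative were 8 of 8 erythrocyte, 9 of 11 endothelial, 10 of 10 microglial and 12 of 12 oligodendrocyte markers. Passing as lower were 6 of 8 erythrocyte, 3 of 11 endothelial, 2 of 10 microglial and 1 of 12 oligodendrocyte markers. Of these markers 0 passed as higher, and over all genes tested 4.66% passed as lower. The endothelial genes mrc1a and kdrl were at 0 in cH, at least 3221-fold and 1063-fold lower than in non-cH with a floor of 3 counts per group, and the microglial genes cd74a and cd74b fell by 2.65 and 2.39 on the log2 scale. The calls of cd74a and cd74b were lost without any of 6 and 7 of the 8 libraries (up to 0.102 and 0.124, each without non-cH replicate 2), and that of kdrl without non-cH replicate 1, 2 or 3 (up to 0.0534, without replicate 2). The red cell genes slc4a1a and hbaa1 were at 0.0156 and 0.312 CPM on average in cH and at 139 and 305 CPM in non-cH. Erythrocyte markers held at most 0.000916% of cH counts and 0.116 to 0.294% of non-cH counts. For endothelial markers the ranges overlapped, at 0.00386 to 0.0185% in cH and 0.0169 to 0.0291% in non-cH.

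LH cells did not show a general rise of axoneme genes. Against non-LH, 3 of 66 members were higher and 1 lower, while 5.76% of all 22145 genes tested were higher and 5.04% lower. The log2 fold change was positive for 26 members and negative for 40, with a median of −0.18 against −0.03 for all genes. Of 75 other motile cilia genes tested, 0 passed in edgeR in either direction, 3 had an unadjusted p below 0.05, and the median was −0.62. Of the 66 members, 4 were higher without overlap (cfap97, dnaaf2, drc3 and tekt4) and 2 lower (cfap206 and dnah6), beside 9.1% and 9.96% of all genes. Both shares of the members were below those of all genes. dnaaf2 and dnah6 did not pass (adjusted p = 0.103 and 0.122).

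The 3 members called higher in LH belong to different structures. They were 4.55% of the members, a share no larger than the 5.76% of all genes. drc3, of the nexin-dynein regulatory complex, was at 21.1, 23.4, 36.1 and 19.0 CPM in LH and 2.74, 4.01, 5.94 and 8.35 CPM in non-LH. The LH libraries were alike and all above non-LH (log2 fold change 2.24 ± 0.39 SE, adjusted p = 0.00454), and the call held without each of the 8 libraries in turn. tekt4 was at 1.58, 15.8, 8.58 and 23.9 CPM in LH and 0.18, 0, 0.81 and 0.0759 CPM in non-LH (log2 fold change 5.51 ± 1.28 SE, adjusted p = 0.021). Its LH libraries spread widely but did not overlap with non-LH; the call was lost without LH replicate 4, non-LH replicate 1 or non-LH replicate 4, with an adjusted p of up to 0.0637 (without non-LH replicate 1). cfap97 was at 24.2, 36.2, 45.3 and 38.7 CPM in LH and 17.6, 16.1, 17.7 and 22.3 CPM in non-LH (log2 fold change 0.97 ± 0.23 SE, adjusted p = 0.0242). The cfap97 call held only without LH replicate 1 or non-LH replicate 4, and its adjusted p was otherwise up to 0.0715 (without non-LH replicate 2). With all 16 libraries in 1 model, whose shared estimate of spread includes the variable cH group, 0 of the 66 passed in LH against non-LH, and drc3 had an adjusted p of 0.674.

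**Figure D5:**
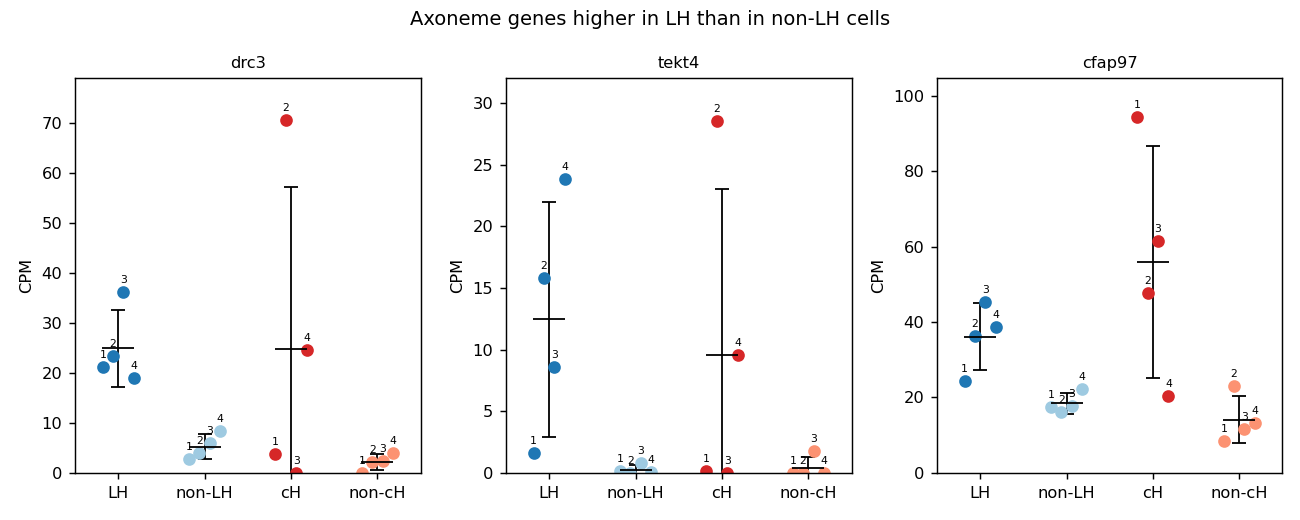
CPM of the TMM-scaled library (vertical axes, linear, from 0) for drc3, tekt4 and cfap97 in the 16 libraries by group; points carry replicate numbers, bars are means and whiskers 1 SD (n = 4). In each panel the 4 LH libraries lie above the 4 non-LH libraries, for drc3 at 19.0 to 36.1 against 2.74 to 8.35 CPM, while the cH libraries spread from near 0 (drc3, tekt4) to above the LH range.

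cfap206, a gene of the radial spoke and central apparatus, was the member that fell in LH. It had 0 counts in all 4 LH libraries and 0.989, 0.628, 0.213 and 1.29 CPM in non-LH, 131 counts in all. Against a floor of 3 counts over the LH group it was at least 37.0-fold lower (adjusted p = 0.0432). The call was lost without any one of the 8 libraries (adjusted p of up to 0.102, without non-LH replicate 4). efcab6 had 0 counts in LH as well and 473 in non-LH, of which replicate 1 had none (adjusted p = 0.0559).

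The transcription factor genes did not mark LH cells. rfx2 and rfx3 had log2 fold changes of 0.23 ± 0.29 SE and 0.35 ± 0.43 SE against non-LH (adjusted p = 0.739 and 0.715). foxj1a was at 20.8, 6.14, 6.11 and 4.87 CPM in LH and 7.37, 11.7, 6.39 and 13.3 CPM in non-LH, and foxj1b at 2.42 CPM or less in LH and 1.87 to 4.06 CPM in non-LH. Neither passed (adjusted p = 0.984 and 0.476).

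Set directly against LH, cH had 3 members higher and 0 lower, beside 4.31% and 5.46% of 21688 genes. The 3 were 4.55% of the members, a share close to that of all genes. They were spag9b (log2 fold change 2.74 ± 0.37 SE, adjusted p = 0.00317), rfx2 (2.17 ± 0.38 SE, adjusted p = 0.00938) and efcab6. The last was at 0 in LH and at least 975-fold higher in cH against a floor of 3 counts over the LH group (adjusted p = 0.0124). These 3 calls held without each library in turn. The log2 fold change was positive for 57 of the 66 members (median 2.51, against −0.30 for all genes). foxj1a (3.66 ± 0.75 SE, adjusted p = 0.0189) and foxj1b (7.00 ± 1.46 SE, adjusted p = 0.0195) were higher in cH than in LH, without overlap; the calls were lost without LH replicate 2, 3 or 4 for foxj1a (up to 0.0691, without LH replicate 3) and without any single LH library for foxj1b (up to 0.0702, without LH replicate 2). drc3 and tekt4, which rose in LH, had log2 fold changes of 0.00 ± 1.34 SE and −0.38 ± 1.83 SE between cH and LH, intervals too wide to place one group above the other.

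Between the negative sorts, non-cH and non-LH, 0 members passed in edgeR (8 had an unadjusted p below 0.05, and DESeq2 called 1, dnah1, lower in non-cH). Over 22161 genes, 0.0361% were higher and 0.0226% lower in non-cH. The log2 fold change was positive for 23 of the 66 members and negative for 43, with a median of −0.39 against −0.003 for all genes. Lower in non-cH without overlap were 3 of the 66 (cfap206, dnai2b and dnal4b), beside 3.35% of all genes. Higher without overlap were 0, beside 2.51%. Of 76 other motile cilia genes tested, 21 were positive and 55 negative (median −0.55). Levels of rfx2 were 25.1 to 58.4 CPM in non-cH and 23.6 to 51.5 CPM in non-LH, nearly the same range (log2 fold change 0.16 ± 0.30 SE, adjusted p = 0.958).

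The difference between the cH contrast and the LH contrast was tested itself in a model of all 16 libraries. It was positive and passed for 4 members (6.06%) and negative for 0, beside 3.95% and 6.64% of 22259 genes. The log2 difference was 2.40 ± 0.46 SE for spag9b (adjusted p = 0.00259), 2.01 ± 0.50 SE for rfx2 (adjusted p = 0.0163), 18.29 for efcab6 (adjusted p = 0.00342) and 9.46 for cfap100 (adjusted p = 0.0266). The sizes for efcab6 and cfap100 rest on groups at or near 0 and are not bounds. For spag9b, rfx2 and efcab6 the call held without each library in turn. That of cfap100 was lost without any of 6 libraries (LH 1 or 4, non-LH 4, non-cH 1, 2 or 4; adjusted p of up to 0.0612, without non-cH replicate 2). foxj1a and foxj1b had differences of 5.06 ± 1.33 SE and 6.22 ± 1.56 SE (adjusted p = 0.0223 and 0.0175); foxj1a was at 0.0501 without LH replicate 3. For drc3 and tekt4, called only in LH against non-LH, the difference did not pass (1.30 ± 1.87 SE and −1.09 ± 2.88 SE, adjusted p = 0.784 and 0.918).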

How the data were processed

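Per the labels' protocols, RNA of FACS-sorted cells (0.5 ng per library) was amplified by SMART-seq2 for 16 cycles and tagmented with Nextera XT; STAR, FastQC and the build GRCz11 are named in the submitters' processing notes. The counter, its handling of multiply mapped reads and any use of strand are not given in the sources used here. The deposited values are raw counts of reads by gene in a single table of the authors, from which 9 of 47038 rows without a gene name were left out. Rows of a symbol that differ by an ending (_1, _2) were summed, which concerns 13 of the 66 members kept; what these copies are is not stated, so their values are uncertain. Totals of 26.8 M to 49.4 M counts set the depth. PCR reads are not independent molecules, so intervals and floors (3 counts over a group) cover counting error only. Of row counts from 1 to 20, 66.9% were even, and of 100 such counts of the members 84.0% were. This would occur if the 2 mates of a pair were each counted, which would make intervals too narrow and bounds of folds too high. The 4 replicates of a group are pools of different brains per the labels.

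Genes with at least 10 counts in at least 2 of 16 libraries were scaled with TMM and tested with edgeR 4.0.16 (R 4.3.3; limma 3.58.1), robust quasi-likelihood F test, two-sided, on the 8 libraries of each pair of groups, with Benjamini-Hochberg adjustment over all genes tested and a threshold of 0.05 (unadjusted counts use the same 0.05). The difference of differences used all 16 libraries. SE is the log2 fold change over the root of F. Alternatives were all 16 libraries in 1 model, RLE factors, DESeq2 1.42.0, filterByExpr, no filter, rows not summed, a replicate block, each library left out, and cH replicates 1 and 2 set aside. The test was also run on simulated counts in which both groups of a pair had the same spread. The cH libraries vary more than the others, so nothing about the calls in cH is concluded from that run. The labels pair no samples by replicate number, so the main fits used no pairing.

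The members, the other gene lists and the roles were chosen with earlier results of these data known. Genes named are, per role, the 1 with the highest mean and the 2 with the smallest p in cH against non-cH, then rfx2, rfx3, foxj1a and foxj1b, the 3 with the smallest adjusted p below 0.05 in each other comparison, and the 2 with the smallest p of each list with at least 2 calls. Others were named after their values were seen: cfap157, cfap43, cfap74, cfap206, dnaaf2, dnah6, dnal4b, spag1a, spag7, gmnc, mcidas, lrguk, th2, aqp1a.1 and the genes listed with each alternative. Of 71 members, 69 were found in RefSeq's table (GRCz12tu), from which only names were taken. Promoter motifs were not analysed here.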

Additional observations from a re-analysis of the deposited data

Results flagged for a closer look

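The change in cH relative to its negative cells differed from that in LH for 4 members (6.06%) by a test of the difference itself. Over all genes in this test, 3.95% passed as positive and 6.64% as negative. The log2 differences were 2.01 for rfx2, 2.40 for spag9b, 9.46 for cfap100 and 18.29 for efcab6. The sizes for cfap100 and efcab6 rest on groups at or near 0 and are not bounds.

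In 33 of 192 groups of 4 libraries checked, 1 library stood apart from the other 3 by Dixon's test at its 95% critical value. The test assumes normally distributed values, and a gene with counts in 1 library and 0 in the other 3 is always flagged. The number flagged can therefore not be set against a chance rate. Most of the groups flagged were genes found in 1 library of a group with the others at or near 0. In cH replicate 1 they were dnah1 (78.0 CPM), dnah3 (52.9), dnah9 (30.3) and slc4a1a (0.0622); in cH replicate 3, dnai2b (10.3) and cfap206 (5.73); and in cH replicate 4, tekt2 (3.75) and hbaa1 (1.04). In non-cH they were efcab6 in replicate 2 (0.196 CPM), cfap100 (0.0438) and tekt4 (1.75) in replicate 3, and dnah1 and cfap206 (each 0.154) in replicate 4. LH replicate 1 held dnaaf3 (0.481 CPM) and dnah3 (3.34), and LH replicate 4 dnah6 (0.273). Non-LH held dnah9 in replicate 1 (0.449 CPM), dnaaf3 (2.13) and tekt1 (1.66) in replicate 3, and dnah3 in replicate 4 (0.557).

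Other single libraries lay above their group: foxj1a in LH replicate 1 (20.8 CPM), rfx3 in LH replicate 4 (31.9), efcab1 (1.53) and cd74a (740) in non-LH replicate 3, gata2a in non-LH replicate 1 (83.5) and non-cH replicate 4 (77.6), and th2 in replicate 1 of non-LH (10.4) and of non-cH (14.8). Below their group lay rfx2 in cH replicate 4 (105 CPM, still above all 12 libraries of other groups), tekt1 in LH replicate 1 (0.17), dync2h1 in LH replicate 3 (11.7), smo in non-cH replicate 1 (10.9) and drc1 in non-cH replicate 1 (0).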

How the results depend on the processing

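Of the 7 members called in cH against non-cH, the same 7 passed with RLE factors, filterByExpr and no filter. In a model of all 16 libraries 6 of them were among 8 called, and DESeq2 called 19 (17 higher, with cfap43 and spag16 lower). Calls over all genes rose too, from 794 higher and 1018 lower to 1412 and 2519 in the 16-library model. By DESeq2 they were 1819 and 2579. In LH against non-LH (4 called) the 16-library model gave 0 and DESeq2 7; in cH against LH (3) they gave 7 and 12; between the negative sorts (0) DESeq2 gave 1; and in the difference of differences (4) DESeq2 gave 16. With 1 library left out, the counts ran from 1 to 8, 2 to 3, 3 to 5, 0 to 0 and 3 to 8. Numbers of replicates pair no samples by the labels, and same-numbered libraries correlated by −0.0187 to 0.0382 in their deviations, though each cH library correlated best with the non-cH library of its number; with a replicate block 0, 1, 1, 0 and 2 members passed in the same order of comparisons.

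Over all genes, 1812 passed in cH against non-cH, 3931 in the 16-library model, 4398 by DESeq2, 448 with the block and 3552 with cH replicates 1 and 2 set aside. In LH against non-LH 2392 passed, and 320 and 3927 by the first 2 of these. In cH against LH 2120 passed, and 4478, 4934, 488 and 4342. For the negative sorts 13 passed, and 2, 378 and 5 in the first 3, with 124 where rows were not summed. In the difference of differences 2357 passed, 4168 by DESeq2, 1405 with the block and 4679 with cH replicates 1 and 2 set aside.

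Genes that changed direction had not passed in the main test, and the cause was not tested. In cH against non-cH these were, as log2 fold changes, dnaaf5 (0.036 in the 16-library model, 0.54 with rows not summed, 0.82 with cH replicates 1 and 2 set aside, −0.96 to 0.36 with 1 library left out), dnaaf3, dnaaf3l and dnah1 (−5.62, −6.71 and −3.75 with the 2 set aside; dnah1 −0.69 to 12.55 with 1 left out), dnal1 (0.068 with the 2 set aside, −0.56 to 0.062), dnai2b (−4.62 to 4.77), efcab7 (−0.06 to 0.59), rfx3 (−0.43 with the block, −0.25 to 0.59) and spag9a (0.043 in the 16-library model, 0.028 with RLE factors and with DESeq2, 0.012 with filterByExpr, 0.26 with the 2 set aside, −0.082 to 0.19). With 1 library left out, rfx3 ran from −0.20 to 0.58 and foxj1a from −0.77 to 0.18 in LH against non-LH, rfx3 from −0.80 to 0.14 in cH against LH, rfx2 from −0.020 to 0.35, rfx3 from −0.69 to 0.051 and foxj1b from −0.28 to 1.11 between the negative sorts, and rfx3 from −0.59 to 0.36 in the difference of differences.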
